A study of Mus musculus with 8 samples.

Results

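The integrated stress response and amino acid genes are 33 mouse genes taken from general knowledge of this pathway, and their probes were found on the array through RefSeq accessions. They were measured by 40 probes, of 39429 probes and 19751 named genes on the array. RNA came from AtT20 cells, a mouse line of pituitary corticotroph tumor cells that secrete ACTH. The cells were kept for 48 hr in medium with stripped serum, in 4 samples without HX630 (control) and 4 samples with HX630 at 10 μM. HX630 is a synthetic agonist of the retinoid X receptors (RXRs), nuclear receptors that regulate transcription. The labels do not say whether control cells received the solvent, or whether the samples of a group came from separate cultures, so that p-values measure only the spread between these samples.

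In the integrated stress response, kinases that sense different stresses phosphorylate the translation factor eIF2. This lowers general protein synthesis but favors translation of the transcription factor ATF4. ATF4 raises transcription of enzymes and transporters that supply amino acids, and, with prolonged stress, of *Ddit3* (CHOP), *Atf3* and other genes linked to growth arrest and cell death. Secretory cells such as corticotrophs carry a heavy load of protein folding, which 1 of the kinases, PERK, senses. ATF4 binds DNA as a dimer with C/EBP proteins at a composite site, the C/EBP-ATF response element. The members were grouped here by role as eIF2 kinases and *Ppp1r15b*, ATF4 with its C/EBP partners, a CHOP/ATF3 branch of 7 genes, an amino acid branch of 14 genes, and 4 other targets of ATF4. Some genes could stand in either branch.

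Promoter sequence was searched for this site in the members of both branches. The element was searched as TGATGNAA on both strands of RefSeq promoter windows (GRCm38.p6), which run from 250 bases before to 50 bases after each gene's start. Windows were held for 27 of the 33 members, and 7 of these (25.9%) had a match, against 4.51% of 27025 genes with a window. By branch, a match lay in 4 of 7 CHOP/ATF3 genes (*Atf3*, *Trib3*, *Chac1* and *Nupr1*) and in 2 of the 10 amino acid genes with a window (*Asns* and *Slc7a11*). *Vldlr* was the remaining member with a match. A match is a description of these letters, not evidence of binding. The stretches below were picked from genes with a match, 3 of the first branch and 2 of the second. They are read 5′ to 3′ on the strand of the gene, with the matches in capitals.
Atf3: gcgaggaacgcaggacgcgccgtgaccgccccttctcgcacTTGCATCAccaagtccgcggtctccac
Nupr1: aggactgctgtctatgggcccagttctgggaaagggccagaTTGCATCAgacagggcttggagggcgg
Chac1: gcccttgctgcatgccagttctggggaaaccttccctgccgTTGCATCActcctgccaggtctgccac
Asns: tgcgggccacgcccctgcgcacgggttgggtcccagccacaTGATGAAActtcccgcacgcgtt
Slc7a11: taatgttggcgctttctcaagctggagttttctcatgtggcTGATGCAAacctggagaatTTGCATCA

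These stretches lie at chr1:191183417-191183484 (minus strand) for *Atf3*, chr7:126625554-126625621 (minus) for *Nupr1*, chr2:119351008-119351075 (plus) for *Chac1*, chr6:7693210-7693273 (minus) for *Asns* and chr3:50443653-50443720 (minus) for *Slc7a11*. All lie upstream of the annotated start. *Atf3*, *Nupr1* and *Chac1* carried the same 8 letters and had log2 fold changes of -1.503, -1.45 and -0.18. *Slc7a11*, which held the element on both strands, had a log2 fold change of 0.32. The part of the element in these changes was not tested. Of the members called down-regulated below, 3 of the 7 with a window had a match, and of the members not called, 4 of 20.

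Signals are given as log2 of the processed intensity minus the 75th percentile of the array, so that 0 is the 75th percentile, and a fold change compares the same probe between groups. A gene was called at an adjusted p below 0.01 (limma, Benjamini-Hochberg over 28552 tested probes) and a fold change above 1.5. All 33 members were well above background on all 8 arrays, so that none was lost to the filter on dim probes. The 75th percentile intensity was 1335 to 1863 on control arrays and 1803 to 1899 on HX630 arrays. Neither of the 2 slides carried both groups, so that slide and treatment cannot be told apart. In RNA from whole cultures, fewer cells of a kind and less RNA per cell cannot be told apart either.

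HX630 down-regulated 8 of the 33 members (24.2%) and up-regulated none by limma. At an unadjusted p below 0.05 and any fold, 7 members were higher and 18 lower, where 31.6% of all genes were higher and 36.4% lower. The methods' t-test at the fold threshold also called 0 members up. Among all 15319 genes tested, 11.2% were called down and 8.38% up, or 19.5% in all. Among probes these shares were 11.2% down, 7.46% up and 18.6% in all. The 8 genes were *Ddit3*, *Atf3*, *Ppp1r15a* and *Nupr1* of the CHOP/ATF3 branch, the transcription factor *Cebpb*, the targets *Stc2* and *Vldlr*, and *Cth* of the amino acid branch. With no fold threshold, 15 members passed in the downward direction and 4 in the upward direction, against 27.2% and 24% of all genes. In 23 members (69.7%) the HX630 arrays did not overlap the control arrays, which also held for 61.5% of all genes. Where the groups do not overlap, the two-sided exact permutation test over 70 regroupings gives p = 0.0286, the smallest it can give with 4 arrays per group.

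**Figure D1:**
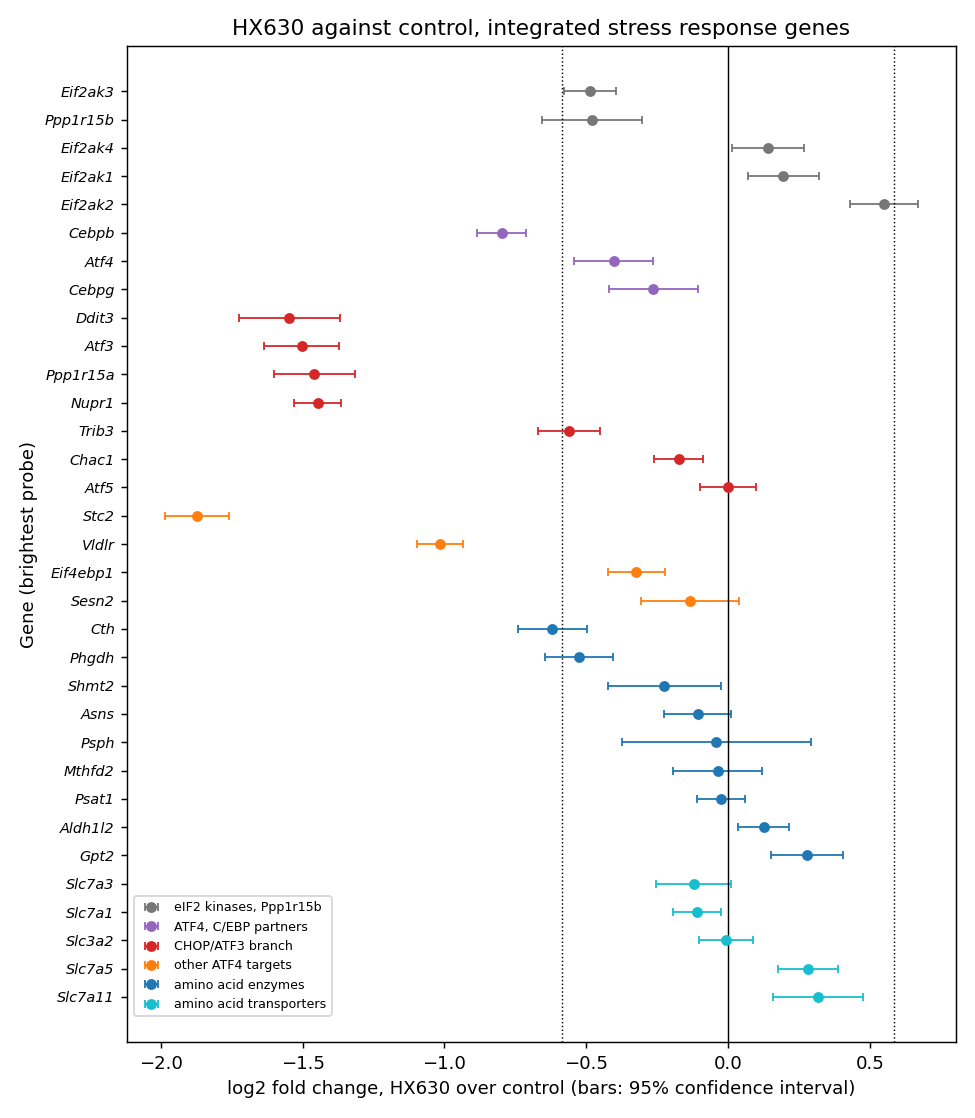
Log2 fold change (HX630 over control) of the 33 members on the horizontal axis, 1 row per gene and colored by role, with 95% confidence intervals from limma and 4 arrays per group. Dotted lines mark the fold change threshold of 1.5. *Stc2* (-1.87) and 4 genes of the CHOP/ATF3 branch lie far to the left, while most genes of the amino acid branch lie near 0.

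Neither the eIF2 kinases nor *Ppp1r15b* were called, where 19.5% of all genes were, and the fold changes had both signs. At an unadjusted p below 0.05 by limma, 3 of these 5 genes were higher and 2 lower (all genes, 31.6% higher and 36.4% lower). *Eif2ak3* encodes PERK, the kinase of the endoplasmic reticulum. Its signals were 0.48, 0.39, 0.44 and 0.48 in control cells and -0.02, -0.07, -0.08 and 0.02 in HX630-treated cells. The groups did not overlap, and the log2 fold change was -0.49 ± 0.04 (SE; adjusted p = 2.22e-05), short of the fold threshold. *Eif2ak2*, which encodes the kinase PKR that senses double-stranded RNA, had signals of -2.04, -2.27, -2.10 and -2.13 in control cells and -1.61, -1.57, -1.59 and -1.59 in HX630-treated cells. Every HX630 array was above every control array, and the log2 fold change of 0.55 ± 0.05 (SE; adjusted p = 5.46e-05) lay just below the threshold. It passed with quantile normalization (0.60), median scaling (0.63) and spike-in scaling (0.77). *Eif2ak1* (HRI, the heme-regulated kinase) had a log2 fold change of 0.19 (adjusted p = 0.0151). *Eif2ak4* (GCN2, which senses uncharged tRNA) had one of 0.14 (adjusted p = 0.0602), and its groups overlapped. *Ppp1r15b*, the constitutive regulatory subunit of the eIF2 phosphatase, had one of -0.48 (adjusted p = 9.14e-04).

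*Atf4* itself was not called. Its signals were 6.98, 6.99, 6.92 and 6.96 in control cells and 6.43, 6.50, 6.69 and 6.61 in HX630-treated cells. The groups did not overlap, and the RNA was at 75.6% of the control level (log2 fold change -0.40 ± 0.06, SE; adjusted p = 6.52e-04). The other *Atf4* probe had a log2 fold change of -0.31. ATF4 is controlled mainly by translation, so that its protein is not read by these arrays. *Cebpb*, a C/EBP factor that pairs with ATF4 and CHOP, was down-regulated. It had signals of 2.91, 2.89, 2.86 and 2.90 without HX630 and 2.05, 2.09, 2.05 and 2.16 with it. This put it at 57.5% of control, a log2 fold change of -0.80 ± 0.04 (SE; adjusted p = 1.22e-06). With spike-in scaling its value of -0.58 missed the fold threshold. *Cebpg*, another partner of ATF4, had a log2 fold change of -0.26 (adjusted p = 0.0110).

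Of the 7 genes of the CHOP/ATF3 branch, 4 fell, to between 34.2% and 36.7% of the control level, and 3 were not called. *Ddit3* encodes CHOP, a transcription factor that promotes cell death under lasting stress. Its signals were 1.87, 2.11, 2.23 and 2.01 in control cells and 0.44, 0.54, 0.55 and 0.49 in HX630-treated cells. The groups did not overlap, and *Ddit3* was at 34.2% of control (log2 fold change -1.55 ± 0.08, SE; adjusted p = 1.67e-06). *Atf3*, a stress-induced factor of the ATF/CREB family, had signals of 1.49, 1.69, 1.63 and 1.5 against 0.12, 0.12, 0.06 and 0.00. It was at 35.3% of control (log2 fold change -1.503 ± 0.06, SE; adjusted p = 4.98e-07). *Ppp1r15a* encodes GADD34, the stress-induced subunit that directs the phosphatase to eIF2 and so ends the response.

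The *Ppp1r15a* signals were 2.70, 2.98, 2.94 and 2.86 in control cells and 1.43, 1.40, 1.43 and 1.39 in HX630-treated cells. It was at 36.4% of control (log2 fold change -1.46 ± 0.06, SE; adjusted p = 7.85e-07). Its constitutive counterpart *Ppp1r15b*, given above, was at 71.7%. *Nupr1*, a small chromatin-associated stress protein, had signals of 5.74, 5.78, 5.73 and 5.82 against 4.36, 4.34, 4.30 and 4.30. It was at 36.7% of control (log2 fold change -1.45 ± 0.04, SE; adjusted p = 1.22e-07). All 4 genes kept their call in each of the 23 other settings tried.

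*Trib3*, a pseudokinase that is induced by CHOP and dampens Akt signaling, lay at the threshold. Its signals were 5.49, 5.62, 5.51 and 5.43 in control cells and 4.94, 4.98, 4.99 and 4.89 in HX630-treated cells, which did not overlap. The log2 fold change of -0.56 ± 0.05 (SE; adjusted p = 2.88e-05) was just short of 1.5-fold, and it passed (-0.59) without control replicate 4. *Chac1*, a glutathione-degrading enzyme, had a log2 fold change of -0.18 (adjusted p = 0.00441), which turned to 0.05 with quantile normalization and with spike-in scaling. *Atf5*, a factor that like ATF4 is controlled by translation, had control signals of 6.30, 6.24, 6.14 and 6.19 and HX630 signals of 6.18, 6.24, 6.23 and 6.21. These overlapped, and the 95% confidence interval of the log2 fold change was -0.10 to 0.10.

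**Figure D2:**
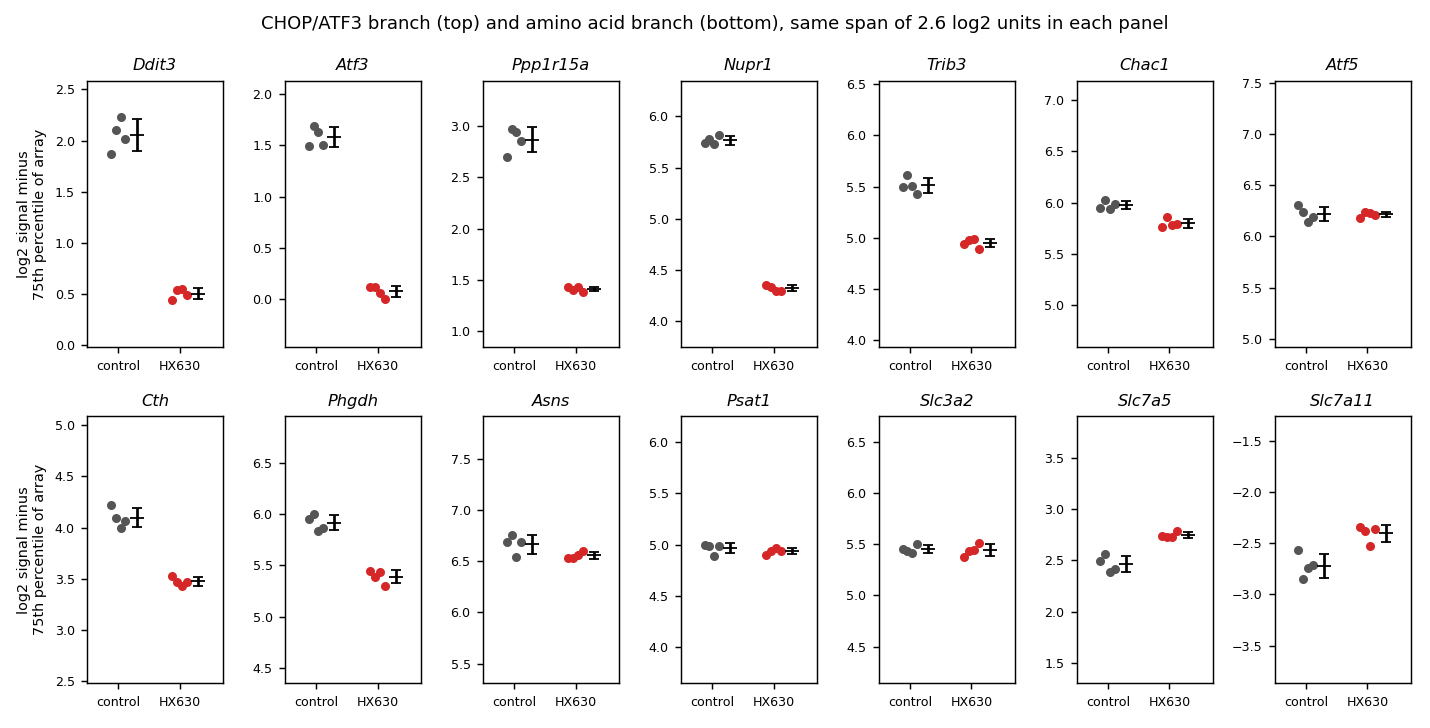
Signal of each array (log2 intensity minus the 75th percentile of the array) for the 7 genes of the CHOP/ATF3 branch (top) and 7 of the 14 genes of the amino acid branch (bottom), in control (gray) and HX630-treated (red) cells. Points are single arrays, and bars beside them show the mean and SD (n = 4). Every panel spans the same range in log2 units, and the groups are far apart for *Ddit3*, *Atf3*, *Ppp1r15a* and *Nupr1* but overlap for *Atf5*, *Asns*, *Psat1* and *Slc3a2*.

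Of the 4 other targets of ATF4, *Stc2* and *Vldlr* were down-regulated. *Stc2* encodes stanniocalcin 2, a secreted glycoprotein induced by stress of the endoplasmic reticulum. Its signals were 1.97, 2.16, 2.16 and 2.07 in control cells and 0.22, 0.19, 0.22 and 0.24 in HX630-treated cells. At 27.3% of control, it had the largest change among the members (log2 fold change -1.87 ± 0.05, SE; adjusted p = 1.37e-07). *Vldlr*, a receptor that takes up lipoproteins, had signals of 2.62, 2.64, 2.61 and 2.54 against 1.62, 1.58, 1.56 and 1.59, without overlap. It was at 49.5% of control (log2 fold change -1.01 ± 0.04, SE; adjusted p = 3.78e-07), and its dimmer probe, with a log2 fold change of -0.97, was called too. *Eif4ebp1*, an inhibitor of cap-dependent translation, had a log2 fold change of -0.32 (adjusted p = 3.62e-04) and was not called. *Sesn2*, which restrains mTORC1, had one of -0.13 (adjusted p = 0.157).

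Among the 9 enzymes of the amino acid branch, only *Cth* was called under these thresholds. *Cth* encodes cystathionine gamma-lyase, which makes cysteine from cystathionine. Its signals were 4.22, 4.09, 4.00 and 4.07 in control cells and 3.53, 3.47, 3.43 and 3.48 in HX630-treated cells, at 65.1% of control. The log2 fold change was -0.62 ± 0.05 (SE; adjusted p = 3.00e-05), and the second probe gave -0.61. The call was lost with quantile normalization (-0.55), median scaling (-0.53) and spike-in scaling (-0.40), and without control replicate 1 (-0.58).

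None of the enzymes of serine synthesis was called. *Phgdh*, which catalyzes the first step, had signals of 5.96, 6.0, 5.84 and 5.87 in control cells and 5.44, 5.39, 5.43 and 5.30 in HX630-treated cells. These did not overlap, and the log2 fold change was -0.53 ± 0.05 (SE; adjusted p = 6.76e-05), below the fold threshold, with -0.44 for its other probe. *Psat1*, the next enzyme, had signals of 5.00, 4.98, 4.89 and 4.98 against 4.90, 4.94, 4.97 and 4.94, which overlapped. Its log2 fold change was -0.03 with a 95% confidence interval of -0.11 to 0.06. *Psph*, the last enzyme, varied most of all members between arrays (SD 0.278 in HX630-treated cells), and its probes gave -0.04 and 0.12.

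*Asns*, the asparagine synthetase often used as a readout of ATF4, had signals of 6.69, 6.76, 6.54 and 6.68 in control cells and 6.53, 6.54, 6.56 and 6.60 in HX630-treated cells. The groups overlapped, and the log2 fold change was -0.11 with an interval of -0.23 to 0.01 (adjusted p = 0.105). Of the mitochondrial one-carbon enzymes, *Shmt2* had a log2 fold change of -0.23 (adjusted p = 0.0523), *Mthfd2* of -0.04 (adjusted p = 0.654) and *Aldh1l2* of 0.12 (adjusted p = 0.0235). *Gpt2*, the mitochondrial alanine aminotransferase, had one of 0.28 (adjusted p = 0.00308), with every HX630 array above every control array, and was short of the fold threshold.

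None of the 5 transporters was called by limma, with 2 higher and 1 lower at an unadjusted p below 0.05, against 31.6% and 36.4% of all genes. *Slc7a5*, the light chain of the leucine transporter LAT1, had signals of 2.49, 2.56, 2.39 and 2.42 in control cells and 2.74, 2.73, 2.72 and 2.78 in HX630-treated cells. The groups did not overlap, and the log2 fold change was 0.28 ± 0.05 (SE; adjusted p = 0.00113), with 0.35 for its other probe. *Slc7a11*, the cystine transporter xCT, had signals of -2.57, -2.85, -2.74 and -2.72 against -2.35, -2.38, -2.53 and -2.37. Here too the HX630 arrays were all higher (log2 fold change 0.32 ± 0.07, SE; adjusted p = 0.00491). *Slc3a2*, the partner chain of both, had a log2 fold change of -0.01 with a 95% confidence interval of -0.10 to 0.09. The cationic amino acid transporters *Slc7a1* and *Slc7a3* had values of -0.11 (adjusted p = 0.0313) and -0.12 (adjusted p = 0.0988).

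**Figure D3:**
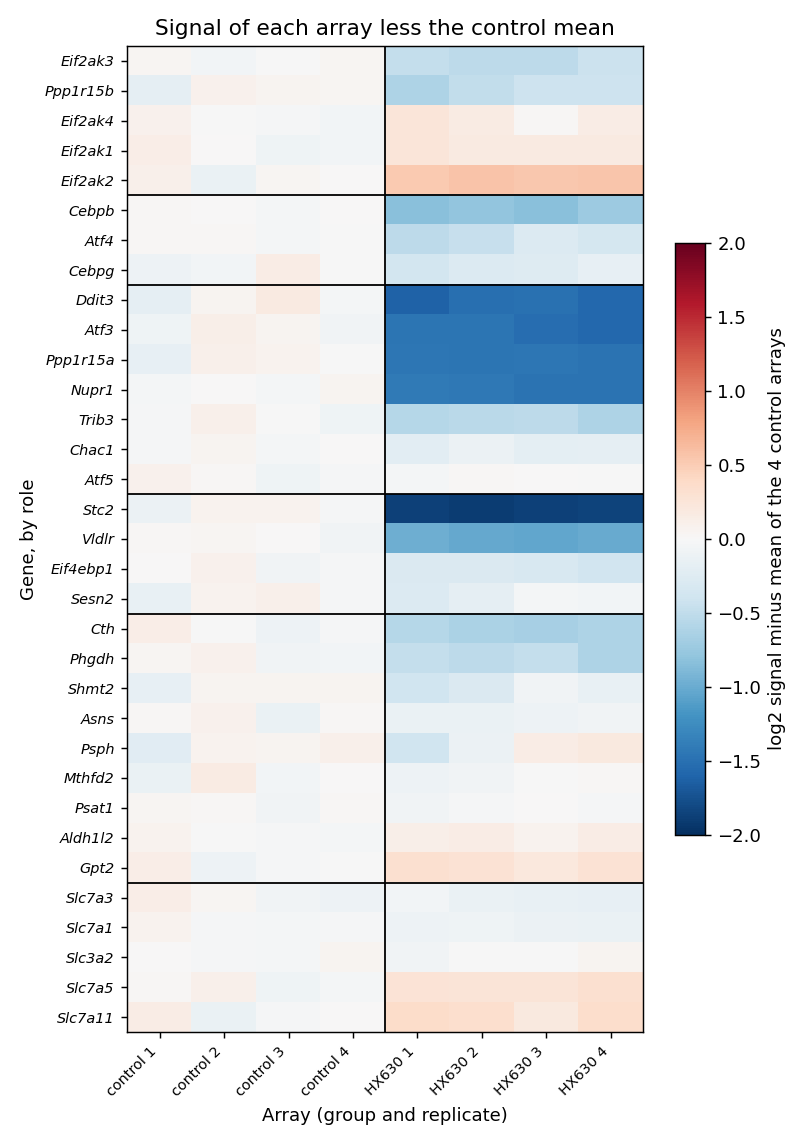
Signal of each array less the mean of the 4 control arrays (color, log2 units, from -2 in blue to 2 in red) for the 33 members, in rows by role, on the 4 control and 4 HX630 arrays in columns. The 4 HX630 columns are alike, with the deepest blue in *Stc2* and in *Ddit3*, *Atf3*, *Ppp1r15a* and *Nupr1*.

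Set side by side, the median log2 fold change was -1.45 over the CHOP/ATF3 branch and -0.04 over the amino acid branch, against -0.03 over all genes tested. In the CHOP/ATF3 branch 4 of 7 genes were called down, and 6 of 7 had all HX630 arrays below all control arrays. The median of this branch is the value of *Nupr1*. The genes not called, *Trib3*, *Chac1* and *Atf5*, had log2 fold changes of -0.56, -0.18 and -0.003. In the amino acid branch 1 of 14 was called down and 7 of 14 did not overlap, 4 with higher and 3 with lower HX630 signals. Of all genes 11.2% were called down and 61.5% did not overlap, so that neither count of the amino acid branch was above those shares. Taken array by array, the median deviation from the control mean was -1.41, -1.43, -1.44 and -1.47 on the HX630 arrays for the CHOP/ATF3 branch. For the amino acid branch it was -0.09, -0.08, -0.01 and 0.00, while the control arrays lay between -0.05 and 0.04. As the members were chosen with results known, the branches are described by these counts and medians, with no test of the difference.

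The difference of the 2 medians was -1.41, and -1.44 to -1.36 over the 23 other settings. Scalings that subtract 1 value per array cannot move this difference, nor can settings that change only the test, threshold or block. Quantile normalization gave -1.38, normexp background correction -1.41 and the omission of single arrays -1.44 to -1.36. The sign of the amino acid median was not stable: it turned positive with quantile normalization (0.08), median scaling (0.05), spike-in scaling (0.18) and normexp background correction (0.06). Spike-in scaling moved the median of all probes from -0.06 to 0.17, and relative to that median the branches were at 0.02 and -1.39 under both scalings. Subtracting 1 value per array cannot change these relative values. The SD within a group had a median of 0.0567 among members and 0.0883 among all tested probes.

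**Figure D4:**
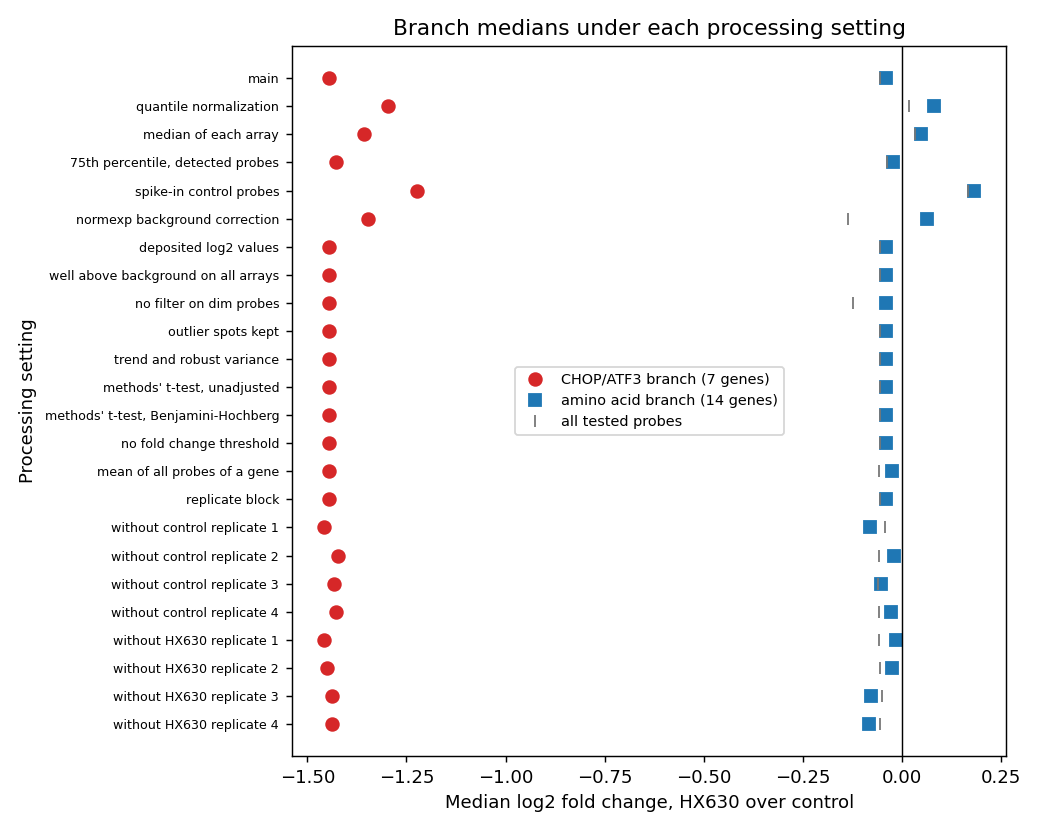
Median log2 fold change (HX630 over control, horizontal axis) of the CHOP/ATF3 branch (red circles, 7 genes), the amino acid branch (blue squares, 14 genes) and all tested probes (gray ticks) under the main and 23 other settings, 1 per row. The red circles stay between -1.46 and -1.22 and the blue squares between -0.08 and 0.18.

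Other genes of the pathway were counted from lists written from general knowledge of it, with results of these data known. None of 20 cytosolic aminoacyl-tRNA synthetases, many of which are targets of ATF4, was called by limma (median -0.15), with 1 higher and 10 lower at an unadjusted p below 0.05 (all genes, 31.6% higher and 36.4% lower). None of 8 subunits of eIF2 and its exchange factor eIF2B was called either (median -0.11), with 1 higher and 4 lower at that p, beside the same shares of all genes. Among 11 other amino acid transporters tested, 2 were up-regulated and 1 was down-regulated, where 8.38% of all genes were called up and 11.2% down. *Slc7a8*, an alternative light chain for *Slc3a2*, had a log2 fold change of 1.63 ± 0.07 (SE; adjusted p = 1.09e-06), and *Slc43a1*, another carrier of large neutral amino acids, had one of 0.94 ± 0.05 (SE; adjusted p = 1.81e-06). *Slc1a5*, a glutamine transporter, had one of -0.70 ± 0.03 (SE; adjusted p = 1.37e-06).

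Of 15 other enzymes of serine, one-carbon, proline and transamination metabolism tested, 5 were down-regulated and none up-regulated (median -0.32). Of all genes, 11.2% were called down and 8.38% up. The 5 enzymes were led by *Gldc* of the glycine cleavage system (log2 fold change -1.10), *Cbs*, the enzyme upstream of *Cth* (-0.96), and *Bcat1*, a branched-chain aminotransferase (-0.66). The other *Bcat1* probes gave -0.29 and -0.32 and were not called. Among 14 further stress and death targets of ATF4 and CHOP (median -0.27), 3 were down-regulated and 1 up-regulated, beside the same shares of all genes. Those down were *Nfil3*, a bZIP repressor (-2.19), *Ndrg1* (-1.82) and *Ero1l*, an oxidase of the endoplasmic reticulum (-1.29). *Gadd45a*, named after its value was seen as the 1 gene of the 14 called up, had a log2 fold change of 0.91 ± 0.14 (SE; adjusted p = 9.84e-04). Of 16 ER chaperones and genes of the ATF6 or XBP1 branch, 5 were down-regulated and none up-regulated (median -0.38), where 11.2% and 8.38% of all genes were. The 5 were led by *Ern1*, the stress sensor IRE1 (-1.24), *Pdia6* (-0.99) and *Hsp90b1* (-0.99). The dimmer *Pdia6* probe gave -0.40 and was not called.

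Markers were read to check the label of the cells. All 7 corticotroph markers were well above background on all 8 arrays, among them *Pomc* (log2 fold change -0.45, not called). *Pcsk1* was down-regulated (-2.06), and *Crhr1* (1.11) and *Neurod1* (0.72) were up-regulated. The summed signal of the 7 was 9.04 to 9.37 on control arrays and 8.66 to 8.75 on HX630 arrays (log2 scale, relative to the 75th percentile). Of 7 markers of other pituitary cells, *Prl* and *Tshb* were well above background on no array, while *Gh* and *Lhb* were above it on all 8. *Fshb* was above it on 2 control and 1 HX630 arrays, *Pou1f1* on 3 and 4, and *Ghrhr* on 2 and 4. *Gh* was down-regulated (-0.79). The other 3 tested, *Lhb* (log2 fold change 0.23), *Pou1f1* (0.26) and *Ghrhr* (0.81), were not called, and the median of the 4 tested was 0.24. The summed signal of all 7 was -2.70 to -1.78 in control cells and -2.38 to -2.15 in HX630-treated cells. Of 6 measured markers of leukocytes, endothelium and fibroblasts, *Cdh5* was above background on no array and *Ptprc* on all 8 (log2 fold change -0.45, not called). *Pecam1*, *Col3a1* and *Dcn* were also above it on all 8, and *Col1a1* on 2 control and 4 HX630 arrays. *Pecam1* was called down (-0.59) and *Dcn* up (1.04), and the summed signal was -1.88 to -1.58 in control cells and -2.17 to -1.95 in HX630-treated cells. The part of these markers in the results above was not tested.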

How the data were processed

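RNA of 4 control and 4 HX630 samples was hybridized to 1-color Agilent arrays. For each array, the scanner files deposited by the authors came from Feature Extraction 10.7.3.1 and hold the processed intensity of every spot after background subtraction. They also deposited a table of log2 values that matched log2 processed intensity minus the 75th percentile of the array (correlation 1 on every array). Here control spots and outlier spots were left out, spots of a probe were averaged on the log2 scale, the 75th percentile of each array was taken over probes and subtracted, and probes well above background on at least 4 of 8 arrays were tested with lmFit and eBayes of limma 3.58.1 in R 4.3.3, over all 8 arrays with no covariate. Benjamini-Hochberg adjustment covered all 28552 probes tested. Single genes were also compared by an exact permutation test. The brightest tested probe stood for a gene, and 7 members had more than 1 probe. Probes were named by RefSeq accession for 26055 of 39429 probes, using a GRCm38.p6 table. The array's design uses another build, so that table gave names only, and the coordinates printed are those of the RefSeq promoter windows. The number of arrays limits the precision. On simulated data with 200 of 28552 probes changed by 1 on the log2 scale in HX630 against control, 78.5% were recovered with 2 false calls.

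The genes named are all 33 members and, of each other list, up to 3 called genes with the largest fitted change. *Gadd45a* and the marker genes *Pomc*, *Prl*, *Tshb*, *Lhb*, *Fshb*, *Pou1f1*, *Ghrhr*, *Ptprc*, *Cdh5*, *Col1a1* and *Col3a1* fall outside this rule and were named after their values were seen. The members and lists were chosen with earlier results of these data known. Alternatives were other scalings, normexp (offset 16; applied to median spot intensities, as the mean is not used here), the deposited log2 values, other filters, tests and thresholds, the mean of a gene's probes, a block for the replicate number, and the omission of single arrays. Experiments other than the arrays are not analysed here.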

Additional observations from a re-analysis of the deposited data

Results flagged for a closer look

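Of 66 groups of 4 arrays (33 members in control and HX630), 5 had 1 array far from the other 3 by Dixon's criterion, where chance gives about 3.3. In each case the gap from that array to its nearest neighbor is given as a share of the whole range of the group. For *Eif2ak1*, HX630 replicate 1 had a signal of -1.38 against a mean of -1.45 on the others (0.972 of the range). For *Shmt2*, control replicate 1 was at 4.33 against 4.55 (0.951). For *Psat1*, control replicate 3 was at 4.89 against 4.99 (0.860). For *Ppp1r15b*, control replicate 1 was at -1.21 against -0.96 (0.839), and for *Psph* at 3.79 against 4.08 (0.831). Control replicate 1 was the distant array in 3 of the 5. None of these genes was called, with all arrays or without that array.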

How the results depend on the processing

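All 23 alternatives left *Ddit3*, *Atf3*, *Ppp1r15a*, *Nupr1*, *Stc2* and *Vldlr* called down. The difference between the branch medians was -1.44 to -1.36. Settings that subtract 1 value per array, or change only the test, threshold or block, cannot move this difference. With no fold threshold, 5763 probes were called up and 7245 down, and 4 and 15 members. *Eif2ak2* was the 1 member called up under quantile normalization, median scaling and spike-in scaling. The CHOP/ATF3 median was -1.30, -1.36 and -1.22 under these and -1.35 with normexp, and the amino acid median was 0.081, 0.047, 0.18 and 0.062. Spike-in scaling called 4189 probes up and 1889 down (68.9% up, against 40.1% of the main calls, 51.6% with median scaling and 49.7% with quantile normalization), and normexp called 1355 up (31.8%). The cause of these moves was not tested.

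Members near 0 changed sign with the scaling. With quantile normalization *Chac1* was at 0.051, *Atf5* at 0.27, *Asns* at 0.18, *Psat1* at 0.12, *Psph* at 0.031, *Mthfd2* at 0.022, *Slc3a2* at 0.18, *Slc7a1* at 0.041 and *Slc7a3* at 0.016. With spike-in scaling *Chac1* was at 0.047, *Atf5* at 0.22, *Asns* at 0.11, *Psat1* at 0.20, *Psph* at 0.18, *Mthfd2* at 0.18, *Slc3a2* at 0.21, *Slc7a1* at 0.11, *Slc7a3* at 0.10 and *Sesn2* at 0.087. Median scaling put *Atf5* at 0.085, *Psat1* at 0.062, *Psph* at 0.045, *Mthfd2* at 0.0498 and *Slc3a2* at 0.079. Normexp put *Atf5* at 0.18, *Asns* at 0.04996, *Psat1* at 0.084, *Psph* at 0.0599, *Mthfd2* at 0.13 and *Slc7a1* at 0.065. The percentile over detected probes put *Atf5* at 0.015 and *Slc3a2* at 0.0091, and the mean of both probes put *Psph* at 0.041.

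Leaving out 1 array at a time gave 1944 to 2568 probes up and 2879 to 3369 down, 0 members up and 7 to 9 down, and branch medians of -1.46 to -1.42 and -0.08 to -0.02. *Cth* lost its call without control replicate 1 (-0.58), and *Trib3* gained one without control replicate 4 (-0.59). The values of 4 members changed sign, with ranges of -0.029 to 0.026 for *Atf5*, -0.081 to 0.018 for *Mthfd2*, -0.032 to 0.013 for *Slc3a2* and -0.12 to 0.079 for *Psph*. The arrays whose omission turned them were control replicates 1 and 2 and HX630 replicate 1 for *Atf5*, control replicate 2 for *Mthfd2*, control replicate 4 and HX630 replicate 1 for *Slc3a2*, and HX630 replicate 1 for *Psph*. With the replicate number as a block, 2210 probes were called up and 3345 down, and no member's call changed. The deviations of same-numbered arrays correlated at 0.52, -0.01, 0.24 and 0.38, so that the numbers were not taken as a pairing. Of the 4 control arrays, 2 correlated best with the HX630 array of their own number, and same-numbered arrays share a position on their slides.

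Slide and treatment cannot be told apart, array signal does not compare levels between genes, and protein and eIF2 phosphorylation were not read.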
